A study of Homo sapiens with 6 samples.

Results

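The human mitochondrial chromosome carries its own small set of genes, and these were followed in the human gastric cancer line HGC-27 with and without the peptide GLUP. The genes were taken by name: every gene whose symbol begins with MT- was included, which gave 37 of the 62443 genes in the table. They were 13 protein-coding genes, 2 ribosomal RNAs (rRNA) and 22 transfer RNAs (tRNA). This rule uses no measured value, although it was chosen with earlier results of these data known. RNA-sequencing values came from 3 control libraries (Con) and 3 libraries of cells given GLUP, a cyclic peptide built from the segment of VGLL4 that contacts the Hippo pathway transcription factor TEAD4. The labels list no treatment for Con, whereas the methods of the study name the peptide's buffer as negative control. The cells were of 1 line. The methods of the study state a minimum of 2 biological replicates for the RNA. The labels do not say whether the 3 libraries of a group came from separate cultures, so that the tests below measure the spread between these libraries. In RNA from bulk cells, fewer cells of a kind and less RNA per cell cannot be told apart.

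Mitochondrial DNA is transcribed from both strands as long precursors, by the polymerase POLRMT with its cofactors TFAM and TFB2M. The tRNAs sit between most of the other genes, and their excision releases the rRNAs and the messenger RNAs. Most of the messenger RNAs are then given short poly(A) tails and kept or degraded by proteins such as LRPPRC and SLIRP. The protein-coding genes all specify subunits of the respiratory chain and ATP synthase (7 in complex I, 1 in complex III, 3 in complex IV and 2 in complex V), and the rRNAs and tRNAs serve to translate them inside the organelle.

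Several of these genes overlap or abut, which bears on how reads can be assigned. Coordinates are those of the GRCh37 annotation, on a mitochondrial chromosome of 16569 bases, where 28 genes lie on the plus strand and 9 on the minus strand. Whether reads were counted by strand is not given in the sources used here. The 2 pairs below share bases in different reading frames, and the shared stretch is shown because reads inside it belong to both genes. Capitals mark the start codon of the downstream gene (MT-ATP6, then MT-ND4).
MT-ATP8 and MT-ATP6 overlap, chrM:8527-8572, plus strand: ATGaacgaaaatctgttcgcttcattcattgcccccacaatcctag
MT-ND4L and MT-ND4 overlap, chrM:10760-10766, plus strand: ATGctaa

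A run of 4 tRNA genes on the minus strand, which carried nearly all of the tRNA signal described below, is shown 5′ to 3′ on its own strand with the anticodon in capitals. They decode alanine, asparagine, cysteine and tyrosine, in this order.
MT-TA, chrM:5587-5655, minus strand: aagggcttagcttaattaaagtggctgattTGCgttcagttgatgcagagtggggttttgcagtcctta
MT-TN, chrM:5657-5729, minus strand: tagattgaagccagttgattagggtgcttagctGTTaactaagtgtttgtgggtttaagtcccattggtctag
MT-TC, chrM:5761-5826, minus strand: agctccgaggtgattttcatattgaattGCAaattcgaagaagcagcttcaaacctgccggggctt
MT-TY, chrM:5826-5891, minus strand: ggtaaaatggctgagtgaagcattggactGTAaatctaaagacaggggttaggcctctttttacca

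Values are FPKM, that is fragment numbers divided by gene length and by library size. Library totals ranged from 909735 to 965147 FPKM, with 20061 to 21498 genes above 0. The number of reads is not in the table. From a pile-up of low values at a common step, depth relative to the deepest library was estimated at 0.832 (Con replicate 2) to 1 (GLUP replicate 2), although only 3.15% to 4.75% of the low values lay at that step. Con replicate 2 stood apart, with a mean correlation of 0.898 with the other libraries on the log2 scale over all tested genes, against 0.954 to 0.964 for the others. Over the 37 mitochondrial genes alone it was also the lowest, at 0.983 against 0.990 to 0.993. The epithelial markers EPCAM and CDH1 were at or near 0 in all 6 libraries and KRT8, KRT18 and KRT19 lay at low values of 0.764 to 2.51 FPKM, higher in all GLUP than in all Con libraries for each of the 3, while of the mesenchymal markers VIM was at 222 to 387 FPKM, FN1 at 0.644 to 3.25 FPKM, lower in all GLUP libraries, and CDH2 at or near 0. Of the markers of other cell types, CD3E and CD79A were at 0 in all 6 libraries, PTPRC, CD14 and VWF were at or near 0, COL1A2 was under 0.5 FPKM, COL1A1 was at 2.86 to 6.90 FPKM and DCN, a fibroblast gene, was at 16.0 to 41.3 FPKM. The 8 of 9 such markers in the table summed to 25.4 to 45.3 FPKM in Con and 19.3 to 27.4 FPKM in GLUP, and their part in the results below was not tested.

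The 37 genes together held a similar part of the library in both groups. Their share of the FPKM total was 27.2%, 27.2% and 26.8% in Con and 29.7%, 27.4% and 21.9% in GLUP. The GLUP libraries lay on both sides of the Con libraries, which were close to each other. The means were 27.1% ± 0.192 (SD, n = 3) in Con and 26.3% ± 4.01 (SD, n = 3) in GLUP, a difference of -0.746 percentage points that was not distinguishable from the spread (exact permutation test, two-sided, p = 1, where 0.1 is the smallest p that 3 against 3 libraries can give). Its sign depended on GLUP replicate 3: without this library the GLUP mean was 1.47 points above Con, and it was also above Con, by 0.890 points, where values were multiplied by gene length to give shares of fragments.

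**Figure D1:**
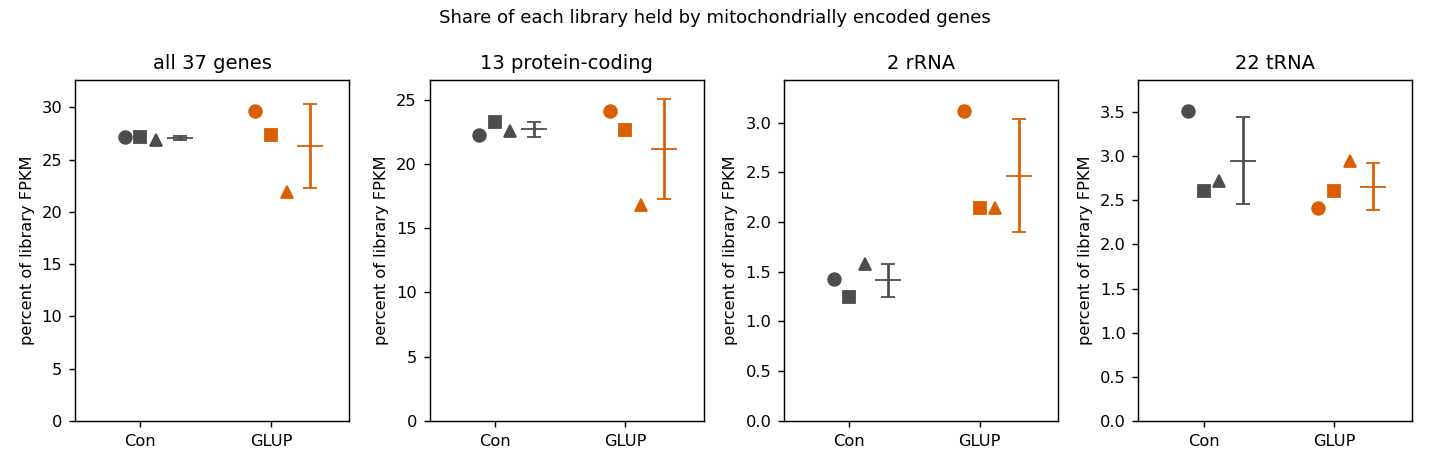
Percent of each library's FPKM total (vertical axes, from 0) held by all 37 mitochondrially encoded genes and by the protein-coding, rRNA and tRNA genes, with 1 symbol per library (circle, square and triangle for replicates 1, 2 and 3) and a bar for mean and SD of the 3 libraries. The rRNA panel is the one in which all 3 GLUP libraries, at 2.14% to 3.12%, lie above all 3 Con libraries, at 1.24% to 1.58%.

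By class, the 13 protein-coding genes held 22.7% ± 0.548 of the library in Con and 21.2% ± 3.88 in GLUP, with overlapping groups (n = 3 each, exact permutation p = 0.9). The 22 tRNAs held 2.95% ± 0.494 and 2.66% ± 0.270, also with overlap (n = 3 each, exact permutation p = 0.5). The 2 rRNAs held 1.43%, 1.24% and 1.58% in Con and 3.12%, 2.15% and 2.14% in GLUP. Their groups did not overlap, with means of 1.42% ± 0.166 and 2.47% ± 0.565 (n = 3 each), 1.74 times higher in GLUP, at the smallest p that the exact permutation test allows (p = 0.1).

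Gene by gene, GLUP was compared with Con on log2(FPKM + 1) with limma over the 7406 genes that averaged 1 FPKM or more. All 37 mitochondrial genes passed this minimum, the lowest with a mean of 13.4 FPKM, and none was at 0 in any library. None of the 37 had an adjusted p under 0.05, where the background was 0% of all tested genes (0 of 7406, with 1606 genes at an unadjusted p under 0.05). At an unadjusted p under 0.05, 6 of the 37 were higher in GLUP (MT-ND3, MT-RNR1, MT-RNR2, MT-CO3, MT-TF and MT-CO1) against 4.46% of all tested genes, and 1 was lower (MT-CO2) against 17.2%. The 3 GLUP libraries all exceeded the 3 Con libraries for 6 of the 37, against 7.55% of all tested genes, and all fell below them for 3 of the 37, against 22.7%. Those with GLUP above were MT-ND3, MT-RNR1, MT-RNR2, MT-CO1, MT-TF and MT-TV, and those with GLUP below were MT-CO2, MT-ND4 and MT-TP.

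In the fold changes of single genes, the members lay to the higher side of all tested genes, whereas their summed share of the library overlapped between groups. The 37 genes share precursors and are not independent observations. The median log2 fold change was 0.16 over the 37 and -0.23 over all tested genes, and 22 of the 37 had a value above 0, against 34.5% of all genes. The sign of small changes was not the same under every scaling. Rescaling by a trimmed mean of log ratios put the median of all genes at -0.01 and that of the 37 at 0.45, and removing the trend in GC content and length put them at 0.01 and 0.31. In the tested genes the fold change followed GC content (Spearman rho 0.549 across 7388 genes, which are not independent), whereas across the 37 mitochondrial genes it did not (rho = -0.0851).

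**Figure D2:**
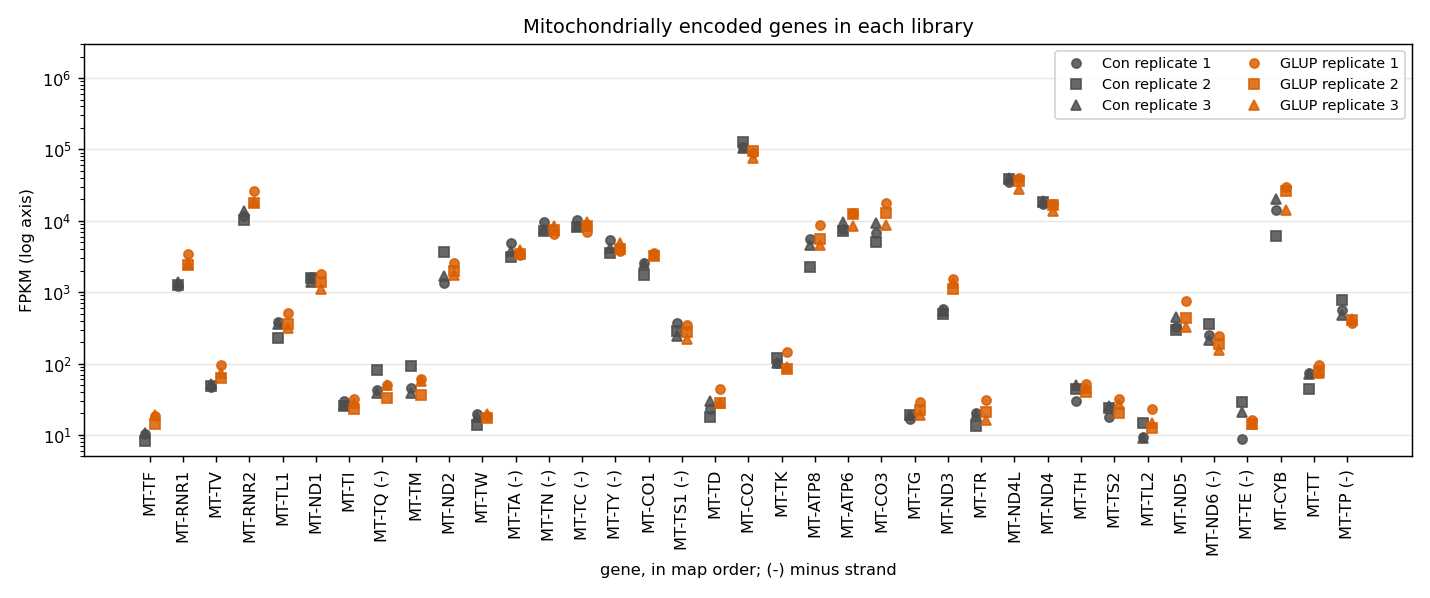
FPKM of each of the 37 genes (vertical axis, logarithmic) in the 3 Con (grey) and 3 GLUP (orange) libraries, in the order of the genes on the chromosome, with (-) for the minus strand. MT-CO2 stands highest in every library, and the 4 minus-strand tRNAs MT-TA, MT-TN, MT-TC and MT-TY lie far above the other 18 tRNAs.

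The rRNAs, which form the core of the mitochondrial ribosome, had among the clearest separations. MT-RNR1, the RNA of the small subunit (chrM:648-1601), was at 1208, 1274 and 1397 FPKM in Con and 3399, 2437 and 2505 FPKM in GLUP. The lowest GLUP library was well above the highest Con library. The means were 1293 ± 95.7 and 2780 ± 537 FPKM (SD, n = 3 each), a log2 fold change of 1.09 (SE 0.24, limma adjusted p = 0.194). MT-RNR2, the RNA of the large subunit (chrM:1671-3229), was at 11793, 10199 and 13504 FPKM in Con and 25801, 17946 and 18130 FPKM in GLUP. These groups did not overlap either, with a log2 fold change of 0.79 (SE 0.21, limma adjusted p = 0.194). Both genes lie next to the start of plus-strand transcription. The ratio of MT-RNR2 to MT-RNR1 was 9.76, 8.01 and 9.67 in Con and 7.59, 7.37 and 7.24 in GLUP. The GLUP ratios were lower in all 3 libraries (9.14 ± 0.987 against 7.40 ± 0.179, n = 3 each, exact permutation p = 0.1). This is the smallest p that the test allows, and it was 0.183 after Benjamini-Hochberg adjustment over the 11 ratios compared. These ratios were picked with the values known, so the adjustment does not cover other possible pairs.

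How RNA was selected for the libraries is not given in the sources used here, and rRNA levels move with that step. Of 14 RNAs known to lack a poly(A) tail, 10 were in the table and 3 gene identifiers were tested. The untested ones averaged under 1 FPKM and had overlapping groups. RNU2-2P reached 2.73 FPKM in GLUP replicate 3, and the others were at most at 0.784 FPKM in any library. RN7SL2, the RNA of the signal recognition particle, was at 10.2, 9.85 and 12.2 FPKM in Con and 21.6, 25.8 and 31.0 FPKM in GLUP, also without overlap (log2 fold change 1.20, SE 0.29, limma adjusted p = 0.194). RN7SK, a RNA that holds the elongation factor P-TEFb inactive, stood on 2 identifiers with log2 fold changes of 0.55 and 0.69 and overlapping groups. The identifier with 0.55 was at 0 in Con replicates 1 and 3 and in GLUP replicate 1. The part of RNA selection in the rRNA values was not tested.

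Among the complex I genes MT-ND3 had the largest difference of all 37. It encodes a small subunit of NADH dehydrogenase and lies at chrM:10059-10404 on the plus strand. Its first 300 bases are shown because this gene had the largest difference, with the first codon in capitals, which in mitochondria is read as methionine.
MT-ND3, chrM:10059-10358, plus strand: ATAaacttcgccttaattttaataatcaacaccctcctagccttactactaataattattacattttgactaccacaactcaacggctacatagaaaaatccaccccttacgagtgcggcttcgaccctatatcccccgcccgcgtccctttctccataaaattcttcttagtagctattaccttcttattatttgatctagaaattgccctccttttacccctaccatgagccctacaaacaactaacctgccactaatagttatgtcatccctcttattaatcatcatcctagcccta

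MT-ND3 was at 585, 496 and 537 FPKM in Con and 1540, 1112 and 1337 FPKM in GLUP. Every GLUP library was above every Con library by a wide margin relative to the spread within groups. The means were 539 ± 44.4 and 1330 ± 214 FPKM (SD, n = 3 each), with a log2 fold change of 1.29 (SE 0.25, limma adjusted p = 0.194).

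The other 6 complex I genes did not share this pattern. MT-ND4L and MT-ND4, which are carried on 1 bicistronic messenger RNA, were the second and the third most abundant mitochondrial genes in Con, at 37817 ± 2405 and 18118 ± 916 FPKM. MT-ND4L was at 34790 FPKM in GLUP with overlapping groups (log2 fold change -0.13, SE 0.18). MT-ND4 was at 17229, 18065 and 19058 FPKM in Con and 17111, 16898 and 13701 FPKM in GLUP. Its groups were separate by a narrow gap, with GLUP lower (log2 fold change -0.19, SE 0.18, limma adjusted p = 0.494), but the value turned positive under trimmed-mean scaling (0.11) and after removal of the trend in GC content and length (0.19). The ratio of MT-ND4L to MT-ND4 was 2.09 ± 0.0668 in Con and 2.18 ± 0.143 in GLUP, with overlap (n = 3 each, exact permutation p = 0.4).

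MT-ND1, the first messenger RNA after the rRNAs, was at 1539 ± 150 FPKM in Con and overlapped with GLUP (log2 fold change -0.13, SE 0.26). MT-ND2 was at 1346, 3603 and 1684 FPKM in Con, where Con replicate 2 was more than any GLUP library, and at 1729 to 2533 FPKM in GLUP (log2 fold change 0.02, SE 0.36). MT-ND5, the longest of the messenger RNAs, was at 298 to 445 FPKM in Con and 324 to 757 FPKM in GLUP, again with overlap (log2 fold change 0.43, SE 0.36). MT-ND6, the one messenger RNA read from the minus strand, was at 253, 359 and 216 FPKM in Con and 242, 187 and 156 FPKM in GLUP. Its groups overlapped through GLUP replicate 1 (log2 fold change -0.49, SE 0.32).

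MT-CYB encodes cytochrome b of complex III. It was at 14207, 6116 and 19923 FPKM in Con and 29365, 26170 and 14332 FPKM in GLUP. Con replicate 2 was far below the others and GLUP replicate 3 was below Con replicate 3, so that the log2 fold change of 0.89 had a wide error (SE 0.41, limma adjusted p = 0.241) and ranged from 0.40 to 1.26 as single libraries were left out.

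The 3 complex IV genes differed in direction. MT-CO2, which carries the copper centre that accepts electrons from cytochrome c, was the highest of all genes in each of the 6 libraries. It was at 109074, 129095 and 104550 FPKM in Con and 90005, 95917 and 76230 FPKM in GLUP. All GLUP libraries were below all Con libraries, with means of 114240 ± 13063 and 87384 ± 10102 FPKM (n = 3 each) and a log2 fold change of -0.39 (SE 0.15, limma adjusted p = 0.202). With trimmed-mean scaling this was -0.09, and with quantile normalization, which sets the top gene to 1 common value, there was no difference left to measure. MT-CO1, the catalytic subunit with the haem and copper site where oxygen is reduced, was at 2562, 1752 and 2476 FPKM in Con and 3539, 3177 and 3362 FPKM in GLUP, without overlap (log2 fold change 0.59, SE 0.24, limma adjusted p = 0.204). MT-CO3, the third core subunit, was at 6727, 5011 and 9275 FPKM in Con and 17870, 12994 and 8749 FPKM in GLUP. GLUP replicate 3 fell within the Con range (log2 fold change 0.90, SE 0.31, limma adjusted p = 0.198).

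Ratios within a library do not change when the whole library is multiplied by 1 factor, although quantile normalization does alter them. The ratio of MT-CO2 to MT-CO1 was 42.6, 73.7 and 42.2 in Con and 25.4, 30.2 and 22.7 in GLUP. The ratio of MT-CO3 to MT-CO2 was 0.0617, 0.0388 and 0.0887 in Con and 0.199, 0.135 and 0.115 in GLUP. The ratio of MT-ND3 to MT-ND4L was 0.0167, 0.0127 and 0.0136 in Con and 0.0387, 0.0304 and 0.0478 in GLUP. None of these 3 ratios overlapped between groups (exact permutation p = 0.1 for each). The ratio of MT-ND3 to MT-CO3 (0.0813 ± 0.0212 in Con and 0.108 ± 0.0387 in GLUP), that of MT-CYB to MT-ND5 (36.4 ± 13.8 and 47.9 ± 11.4) and that of MT-CO2 to the next most abundant mitochondrial gene (3.02 ± 0.333 and 2.54 ± 0.244) did overlap. In all 11 ratios were compared, of which 6 did not overlap, each with a Benjamini-Hochberg adjusted exact p of 0.183 over the 11. The pairs were chosen with values of these genes known. A ratio shows an unequal change and not which of its genes changed.

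The ATP synthase genes MT-ATP8 and MT-ATP6 are carried on 1 messenger RNA and share the 46 bases shown above. MT-ATP6, the subunit that forms the proton path, was at 7777, 7165 and 9611 FPKM in Con and 12765, 12620 and 8536 FPKM in GLUP, with GLUP replicate 3 inside the Con range (log2 fold change 0.45, SE 0.23). MT-ATP8 was at 5531, 2265 and 4638 FPKM in Con and 8729, 5472 and 4564 FPKM in GLUP, with overlap (log2 fold change 0.64, SE 0.36). The ratio of MT-ATP8 to MT-ATP6 varied more between libraries than between groups, at 0.503 ± 0.198 and 0.551 ± 0.126 (n = 3 each, exact permutation p = 0.8). MT-CO3, which follows MT-ATP6 on the chromosome, was higher relative to it in GLUP, with ratios of 0.865, 0.699 and 0.965 in Con and 1.40, 1.03 and 1.02 in GLUP.

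**Figure D3:**
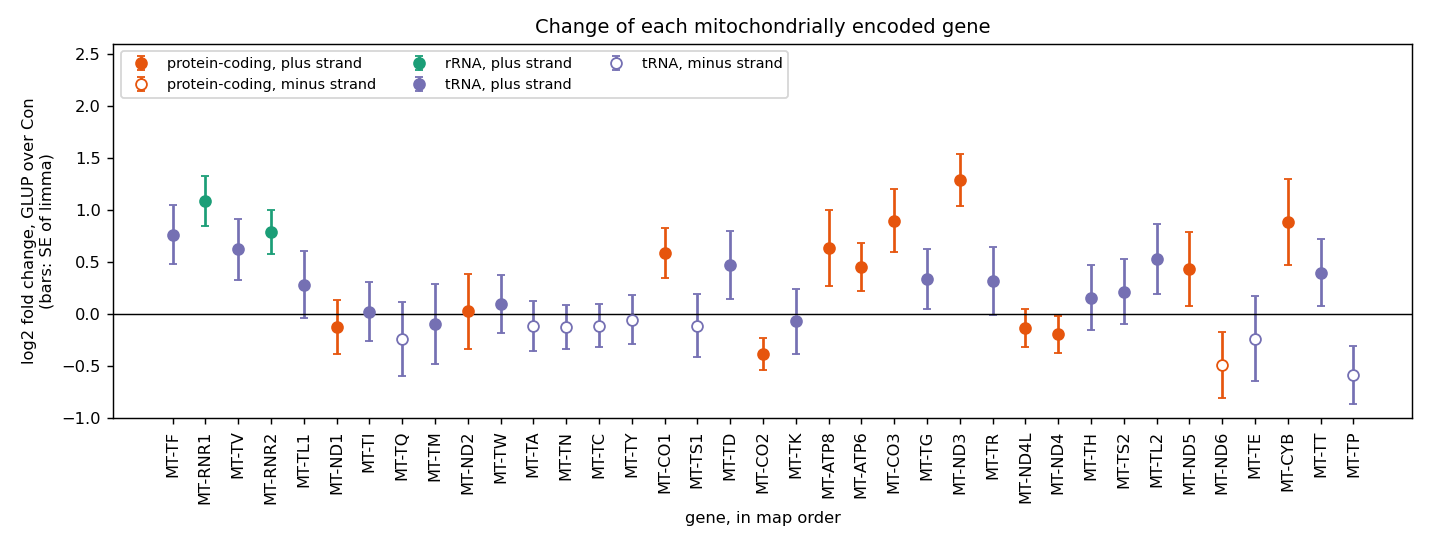
Log2 fold change of GLUP over Con for each gene in map order, with bars of 1 SE from limma. Filled symbols are plus-strand genes and open symbols minus-strand genes, coloured by class. MT-ND3 at 1.29 and MT-RNR1 at 1.09 are highest, all 9 open symbols lie below 0, and under trimmed-mean scaling 7 of these 9 lay above 0.

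The tRNA values were spread over a wide range and rested mostly on 4 genes. MT-TA, MT-TN, MT-TC and MT-TY, the minus-strand run shown above, together summed to 30163, 22199 and 24121 FPKM in Con and 20628, 23244 and 26910 FPKM in GLUP. These groups overlapped, and the 4 genes held 10.2% ± 1.77 of the mitochondrial total in Con and 9.70% ± 2.74 in GLUP. By contrast the 14 plus-strand tRNAs together came to between 713 and 1184 FPKM. MT-TW, the tryptophan tRNA directly before this run, was at 13.9 to 19.7 FPKM. The log2 fold changes of the 4 genes were -0.11 for MT-TA, -0.13 for MT-TN, -0.11 for MT-TC and -0.05 for MT-TY, each smaller than its SE.

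The tRNAs are 59 to 75 bases long, and how the FPKM of genes this short was computed is not given in the sources used here. At the lowest levels the values rest on few fragments: in units of the common step, MT-TF amounted to 14.6 to 37.7. MT-TF, the phenylalanine tRNA that opens the plus-strand transcript, was at 10.2, 8.14 and 10.7 FPKM in Con and 18.5, 14.3 and 18.7 FPKM in GLUP, without overlap (log2 fold change 0.76, SE 0.28, limma adjusted p = 0.198). MT-TV, the valine tRNA between the 2 rRNAs, was at 47.3, 48.0 and 52.4 FPKM in Con and 95.1, 63.3 and 74.1 FPKM in GLUP (log2 fold change 0.63, SE 0.29, limma adjusted p = 0.242). Hence all 4 genes at the start of the plus-strand transcript, MT-TF, MT-RNR1, MT-TV and MT-RNR2, had GLUP above Con without overlap. This block was marked out with the values known. Its genes are neighbours on 1 precursor and are not 4 independent observations. MT-TL1, the leucine tRNA that follows MT-RNR2, was at 384, 229 and 355 FPKM in Con and 508, 355 and 313 FPKM in GLUP, with overlap.

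MT-TP, the proline tRNA on the minus strand, was the one tRNA with GLUP below Con in all libraries, at 569, 775 and 473 FPKM in Con and 367, 404 and 416 FPKM in GLUP (log2 fold change -0.58, SE 0.28, limma adjusted p = 0.251). Among the remaining plus-strand tRNAs, MT-TL2 (0.53), MT-TD (0.48), MT-TT (0.40), MT-TG (0.34), MT-TR (0.32), MT-TS2 (0.22), MT-TH (0.16), MT-TW (0.10) and MT-TI (0.02) had log2 fold changes above 0 and MT-TK (-0.07) and MT-TM (-0.10) below 0. Of the minus-strand tRNAs MT-TQ and MT-TE were at -0.24 and MT-TS1 at -0.11. The groups overlapped for all of these, and the errors of MT-TM, MT-TQ and MT-TE were 0.36 to 0.41 on the log2 scale.

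A division by strand was noticed after the values were seen. All 9 minus-strand genes had a log2 fold change under 0, compared with 6 of the 28 plus-strand genes, but with trimmed-mean scaling 7 of the 9 were above 0, and with quantile normalization or removal of the GC and length trend 1 of the 9 was. Without Con replicate 1, 3 of the 9 were above 0, and 2 were without Con replicate 2. It was 2 without GLUP replicate 1 and 1 without GLUP replicate 3. All 9 stayed under 0 without Con replicate 3 or without GLUP replicate 2. Whether reads were counted by strand is not known. The distance between the strands does not depend on rescaling a whole library. The mean log2 level of plus-strand genes minus that of minus-strand genes was -0.86, -1.09 and -0.60 in Con and 0.04, -0.30 and -0.47 in GLUP. The mean difference was 0.61, and 0.50 for the tRNAs alone. These values describe what was noticed in the same libraries and were given no test.

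Within the mitochondrial total the share of each gene was then compared, which removes differences in the total itself. MT-CO2 took 44.1%, 51.5% and 41.2% of the mitochondrial FPKM in Con and 32.4%, 36.9% and 36.1% in GLUP, a lower share in all GLUP libraries (45.6% ± 5.34 against 35.1% ± 2.40, n = 3 each, exact permutation p = 0.1). The share of MT-ND4 was also lower, at 7.23% ± 0.272 and 6.38% ± 0.193, and that of MT-ND4L was 15.1% ± 0.798 and 13.9% ± 0.559 with overlap. Together these 3 genes made up 52.9% to 74.4% of the mitochondrial total in the 6 libraries.

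The shares that were higher in all GLUP libraries belonged to 10 genes. MT-RNR2 held 4.72% ± 0.626 in Con and 8.26% ± 1.23 in GLUP. MT-RNR1 held 0.516% ± 0.0315 and 1.12% ± 0.156. The protein-coding genes among them were MT-CO3 (2.79% and 5.19%), MT-ATP6 (3.26% and 4.50%), MT-CO1 (0.904% and 1.36%) and MT-ND3 (0.215% and 0.538%), given as group means. The tRNAs were MT-TF, MT-TV, MT-TG and MT-TT, each under 0.04% of the total. With the 2 lower ones this made 12 of 37 shares without overlap, 8 of them genes that also did not overlap in FPKM, and each had an exact permutation p of 0.1 (0.308 after Benjamini-Hochberg adjustment over the 37). Shares of 1 total are not independent, since a lower share of MT-CO2 leaves more to the rest. Multiplied by gene length, the shares did not overlap for 13 genes, with 9 higher and 4 lower. Shares of the mitochondrial total exist for the 37 genes only, so no share over all tested genes can be set beside these counts. They describe the libraries and do not tell whether so many separations are unusual.

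**Figure D4:**
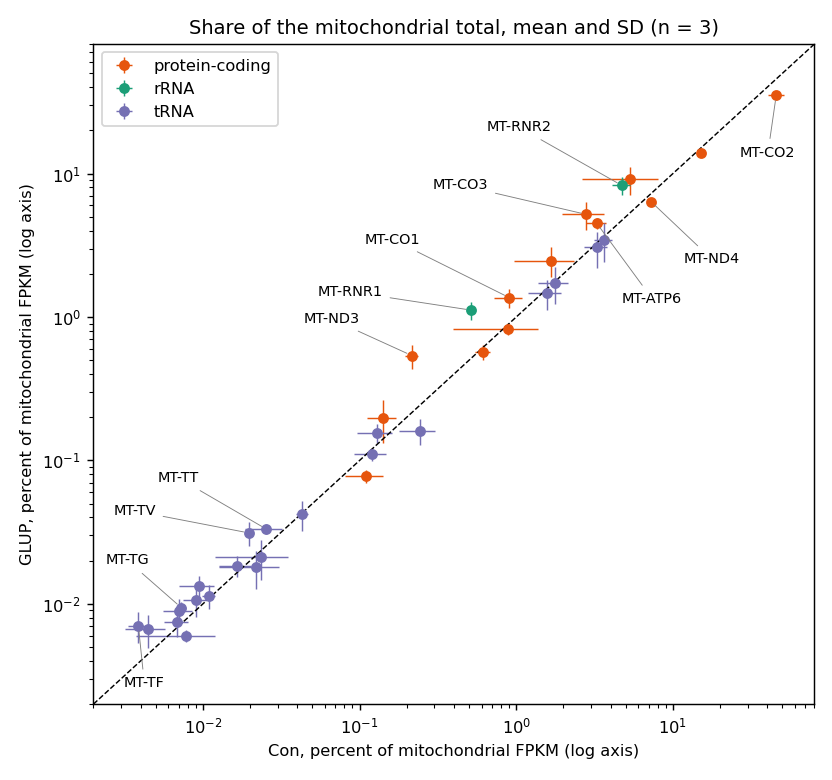
Share of the mitochondrial FPKM total in Con (horizontal) and GLUP (vertical), both on logarithmic axes in percent, as mean and SD of 3 libraries, with the line of equal shares dashed. Named genes are the 12 whose libraries do not overlap: MT-CO2 (45.6% and 35.1%) and MT-ND4 lie below the line and 10 genes lie above it.

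Summed by complex, complex IV held 49.3% ± 4.39 of the mitochondrial total in Con and 41.7% ± 1.51 in GLUP, without overlap. This difference was that of MT-CO2: without it the other 2 genes of the complex held 3.70% ± 0.967 and 6.55% ± 1.03, higher in all GLUP libraries. Complex V held 4.92% ± 1.01 and 6.97% ± 0.767, higher in all GLUP libraries as a share of this total. As a sum of FPKM, complex V overlapped between groups, at 9430 to 14249 in Con and 13100 to 21494 in GLUP. Complex I held 24.3% ± 1.31 and 22.5% ± 0.505, with overlap, and complex III, which is MT-CYB alone, 5.35% ± 2.73 and 9.14% ± 2.05, with overlap (n = 3 for each value). The sum of rRNA FPKM relative to that of the protein-coding genes was 0.0643, 0.0534 and 0.0699 in Con and 0.129, 0.0949 and 0.127 in GLUP, without overlap.

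A single control library decided whether any of these genes passed the adjusted threshold. This library, Con replicate 3, had the highest mean correlation with the other libraries, at 0.964 over all tested genes. Without Con replicate 3, MT-ND3, MT-RNR1 and MT-RNR2 had limma adjusted p values of 0.0299, 0.0330 and 0.0456, with log2 fold changes of 1.29, 1.15 and 0.89. These were 3 of 37 genes higher, where the background in that comparison was 2.17% of 7479 genes, and none of the 37 was lower, against a background of 16.2%. Without Con replicate 2, the library that stood apart, the same genes had log2 fold changes of 1.23, 1.08 and 0.69 and adjusted p values of 0.0754, 0.0816 and 0.163. Counts of genes without overlap also moved with single libraries. GLUP was above Con without overlap for 11 of the 37 without Con replicate 3, against 13.6% of all genes tested there, and for 12 of the 37 without GLUP replicate 3, against 12.6%. GLUP was below Con for 5 of the 37 without GLUP replicate 1, against 29.2%. For MT-ND3, MT-RNR1 and MT-RNR2 the log2 fold change stayed above 0.6 in each of the 6 leave-one-out comparisons.

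**Figure D5:**
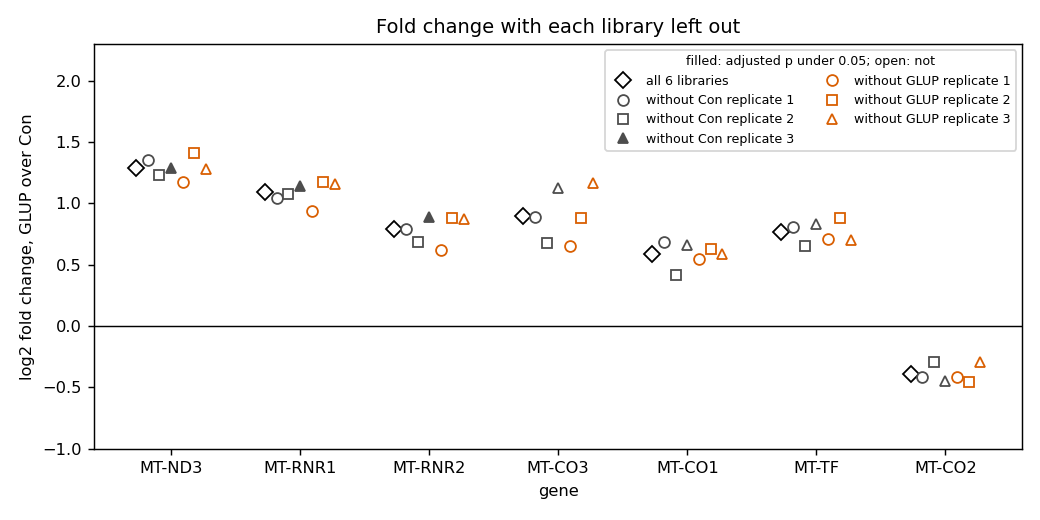
Log2 fold change of GLUP over Con for the 7 genes with an unadjusted p under 0.05, with all 6 libraries (diamonds) and with each library left out (grey for Con, orange for GLUP). Filled symbols mark an adjusted p under 0.05, which MT-ND3, MT-RNR1 and MT-RNR2 reached without Con replicate 3, and no gene changes sign.

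Parts of the mitochondrial chromosome also exist as copies in the nuclear genome, to which reads can be assigned. The table held 409 genes named as such copies, of which 11 averaged 1 FPKM or more, and all copies summed to 0.938%, 1.44% and 1.32% of the FPKM of the 37 genes in Con and 1.46%, 1.77% and 1.57% in GLUP. These shares were higher in all GLUP libraries. MTATP6P1 on chromosome 1 was the highest, at 23.3% to 27.0% of MT-ATP6, with which it shares 98.5% of 681 bases. Its log2 fold change was 0.53 (SE 0.25), against 0.45 for MT-ATP6, and adding its FPKM to that of MT-ATP6 left the groups overlapping. MTCO1P12 was at 3.72% to 6.75% of MT-CO1, MTND2P28 at 3.74% to 7.46% of MT-ND2 and MTND1P23 at 1.88% to 6.95% of MT-ND1. MTCO2P12 and MTCO3P12 stayed under 1% of their counterparts, and MTND4P12, MTCO2P2, MTND4LP30, MTATP8P1 and MTRNR2L10 under 0.1%. With copies added, MT-CO2 was still lower and MT-CO1 still higher in all GLUP libraries.

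The nuclear genes that transcribe and process mitochondrial RNA were read from the same fit. Of 18 genes of transcription and replication 15 were tested, and 0 passed the adjusted threshold. The values were under 0 for 14 of the 15, against 65.5% of all tested genes, with a median of -0.37 against -0.23 over all genes, and 7 had all GLUP libraries below all Con libraries, against 22.7% of all tested genes. Without Con replicate 3, 5 of the 15 passed, all lower, where 16.2% of all tested genes did. POLRMT was at 2.00 ± 0.310 FPKM in Con and 1.70 ± 0.397 in GLUP (log2 fold change -0.16, SE 0.23), and TFAM, which packs and opens mitochondrial DNA, had the one value above 0, of 0.08 (SE 0.34). TFB2M was under the minimum, at 0.784 and 0.684 FPKM. The lowest values were those of MTERF1, which binds at the end of the rRNA unit and is linked to termination there, and TEFM, the elongation factor. MTERF1 was at 9.45, 24.5 and 4.75 FPKM in Con and 1.48, 2.98 and 3.47 FPKM in GLUP (log2 fold change -1.70, SE 0.50, limma adjusted p = 0.194). TEFM was at 24.5, 23.5 and 9.47 FPKM in Con and 7.34, 7.47 and 8.67 FPKM in GLUP (log2 fold change -1.09, SE 0.38, limma adjusted p = 0.198). For both, Con replicate 3 lay closest to the GLUP libraries.

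Of 29 genes of mitochondrial RNA processing and stability 25 were tested, again with 0 past the adjusted threshold, 4 with values above and 21 with values under 0 (65.5% of all tested genes were under 0), and a median of -0.38. All GLUP libraries lay below all Con libraries for 8 of the 25 and above them for 2, against 22.7% and 7.55% of all tested genes. Without Con replicate 3, 1 was higher and 5 were lower at the adjusted threshold, where 2.17% and 16.2% of all genes were. LRPPRC, which with SLIRP protects mitochondrial messenger RNAs, was at 5.49, 7.15 and 3.38 FPKM in Con and 3.37, 2.93 and 2.07 FPKM in GLUP (log2 fold change -0.71, SE 0.31). SLIRP was at 11861 ± 4686 and 7251 ± 923 FPKM, without overlap (log2 fold change -0.65, SE 0.27). The lowest values were those of PRORP, the nuclease of mitochondrial RNase P (-1.11, SE 0.31), and PTCD3, a protein of the mitochondrial ribosome (-0.997, SE 0.40). The highest were those of FASTK, a RNA-binding protein linked to MT-ND6 (0.99, SE 0.26), and HSD17B10, another part of RNase P (0.95, SE 0.44).

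The nuclear partners of the protein-coding genes were followed as 76 subunits of the respiratory complexes and ATP synthase, of which 74 were tested. Their median was -0.15, with 24 values above and 50 under 0, a share close to the 65.5% of all tested genes, and 0 past the adjusted threshold. All GLUP libraries lay below all Con libraries for 12 of the 74 and above them for 6, against 22.7% and 7.55% of all tested genes. Without Con replicate 3, 2 were higher and 9 lower, where 2.17% and 16.2% of all genes were. The highest values were those of UQCRC1 of complex III (1.31, SE 0.74) and NDUFB11 of complex I (1.07, SE 0.40), and the lowest those of NDUFA5 (-1.67, SE 0.64) and NDUFA12 (-1.61, SE 0.45), both of complex I. In UQCRC1, NDUFB11 and NDUFA12 Con replicate 2 was the extreme one of the Con libraries. For UQCRC1 it was at 20.6 FPKM, where the other Con libraries were at 170 and 231 FPKM. NDUFA5 was at 62.5, 146 and 17.1 FPKM in Con and 11.5 to 20.7 FPKM in GLUP, with overlap through Con replicate 3.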

How the data were processed

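The 3 Con and 3 GLUP libraries of HGC-27 cells, sequenced on an Illumina platform, were grouped by sample title. The authors deposited 1 table of FPKM values per gene. HISAT2, Cufflinks, RSEM and GRCh38.p10 are named in the submitters' processing notes without role, whereas the gene identifiers carry the suffix of an annotation lifted to GRCh37. FPKM holds no read counts, so count tests were not used. Of 62492 rows, 49 pseudoautosomal copies at 0 were merged, leaving 62443 genes, of which 62162 were named from a table of Ensembl identifiers. FPKM is relative to the library total, so abundant genes such as these move all others.

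On the scale log2(FPKM + 1), the 7406 genes averaging 1 FPKM or more were fitted with limma 3.58.1 (lmFit, eBayes with trend, R 4.3.3), two-sided, with Benjamini-Hochberg adjustment over all of them and a threshold of 0.05. Fold changes are on this scale. Sums, shares and ratios were compared with exact permutation tests over libraries (scipy 1.17.1). The fit was tested on simulated data with 200 changed genes. The simulated noise was independent between genes, so this test does not cover libraries that deviate as a whole, as Con replicate 2 did. Sequences, positions, lengths and GC content were read from the GRCh37 reference, and identity of nuclear copies from alignments with Biopython 1.88. The common step of low values was taken from FPKM multiplied by length. Replicate numbers were not treated as pairs, since the labels tie them to no shared culture or day (correlations of same-numbered libraries 0.132, -0.0102 and -0.173).

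All 37 genes are named, and from the other lists the 2 largest rises and falls, POLRMT, TFAM, TFB2M, LRPPRC, SLIRP, marker genes, and nuclear copies of at least 1 FPKM. RN7SK was named as a further tested member after its values were seen. The genes, lists and tests were chosen with earlier results of these data known. Other settings were a pseudocount of 0.1, no minimum or 5 FPKM, 3 rescalings (common non-mitochondrial total, trimmed mean of log ratios with 30% and 5% trimmed, quantiles), eBayes variants, removal of a loess trend (span 0.5) in GC content and length, the replicate block, and leaving out each library. Listed genes with no match in the table were not analysed here.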

Additional observations from a re-analysis of the deposited data

How the results depend on the processing

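All 37 genes kept to the same side of the adjusted threshold except without Con replicate 3. The count of all genes past it was 0 with all libraries, 1 where the minimum was 5 FPKM, 1 for eBayes without a trend, 2 once the trend in GC content and length was taken out, and 0 to 1372 when single libraries were left out (1372 without Con replicate 3, 3 without Con replicate 2). The count of mitochondrial genes past it was 0 to 3 when single libraries were left out and 0 under the other settings. With the replicate block the count of all genes was 1 (also 1 with both block and trend removal), the difference in mitochondrial share was -0.746 points, and no call among the 37 genes changed. The share difference changed sign for FPKM multiplied by length (0.890) and ranged from -2.43 to 1.47 when single libraries were left out. Counts of genes without overlap when libraries were left out, the comparison of the strands, and the block of genes at the start of the plus-strand transcript were chosen after seeing the data.

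Small log2 fold changes changed sign, and the cause was not tested. Trimmed-mean scaling gave 0.17 for MT-ND1, 0.057 for MT-TQ, 0.20 for MT-TM, 0.19 for MT-TA, 0.18 for MT-TN, 0.19 for MT-TC, 0.25 for MT-TY, 0.19 for MT-TS1, 0.23 for MT-TK, 0.17 for MT-ND4L, 0.11 for MT-ND4 and 0.043 for MT-TE. Removal of the GC and length trend, alone or with the replicate block, gave 0.074 for MT-ND1, 0.012 for MT-TY, 0.13 for MT-TK, 0.13 for MT-ND4L and 0.19 for MT-ND4. Quantile normalization gave 0.071 for MT-TM, -0.021 for MT-ND2, 0.056 for MT-TK and 0.033 for MT-TE, and scaling to the total outside the 37 genes gave -0.027 for MT-TI and -0.026 for MT-ND2. With single libraries left out the ranges that crossed 0 were -0.30 to 0.036 for MT-ND1, -0.084 to 0.14 for MT-TI, -0.43 to 0.077 for MT-TQ, -0.33 to 0.27 for MT-TM, -0.27 to 0.44 for MT-ND2, -0.035 to 0.20 for MT-TW, -0.26 to 0.060 for MT-TA, -0.22 to 0.0014 for MT-TC, -0.19 to 0.11 for MT-TY, -0.27 to 0.054 for MT-TS1, -0.31 to 0.082 for MT-TK, -0.24 to 0.015 for MT-ND4L, -0.049 to 0.30 for MT-TH and -0.70 to 0.12 for MT-TE. The other 21 genes kept their sign under these settings, apart from MT-CO2, which had no difference after quantile normalization. Depth is known only in relative terms, and the least abundant tRNAs rest on few fragments.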
